A study of Mus musculus with 2 samples.

Results

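Mt1 and Mt2 encode the widely expressed metallothioneins of the mouse, and Hmox1 encodes the inducible haem oxygenase. These 3 genes were taken by symbol from the gene tables of both libraries, where each matched 1 of 27998 gene identifiers. They were picked with earlier results on the same libraries in view, among them their unique molecular identifiers (UMIs) by cell class and by library. Their levels and ratios are therefore a description, with no test.

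The study collected CD45- cells, which lack the common surface protein of leukocytes, from lungs of mice 7 days after an intravenous injection of Labelling-4T1 cells. 4T1 cells derive from a mammary tumour of the mouse and readily seed the lung, and their labelling version is known to release a cell-penetrating mCherry protein that is taken up by neighbouring cells. Sorting gave 1 library titled Cherry_Positive and 1 titled Cherry_Negative, and the lungs behind both had received the tumour cells. The labels name no strain, age, number of animals or radiation exposure for either library, although the series title speaks of radiation. With 1 library in each group there was no replicate, so no test of a difference between the groups was possible and no p-value is given. Intervals are exact 95% intervals and cover the counting error of UMIs or cells only.

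Metallothioneins are small cysteine-rich proteins of the cytosol that bind zinc and copper and also take up cadmium and reactive oxygen species. Free zinc activates the transcription factor MTF1, which binds metal response elements in the metallothionein promoters, and glucocorticoids and the cytokine IL-6 also induce these genes. Haem oxygenase 1 splits haem into biliverdin, carbon monoxide and iron. Its gene is induced by haem, when haem releases the repressor BACH1, and by oxidative stress through NRF2, and in the lung it is best known from macrophages.

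On the GRCm38 assembly (mm10), all 3 genes lay on the plus strand of chromosome 8. Hmox1, with 5 exons, spanned chr8:75093621-75100589. Mt2, with 3 exons, spanned chr8:94172664-94173568, and Mt1, also with 3 exons, spanned chr8:94179082-94180327, which leaves 5513 bases between the neighbours. Mt4 and Mt3 preceded them in the same cluster. The longest run of bases that the Mt1 and Mt2 transcripts share was 20, so a read longer than that can be told apart between them.

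The bases before the annotated starts of Mt1 and Mt2 are printed from RefSeq (GRCm38.p6), since MTF1 is known to act on metal response elements in their promoters. Windows of 300 bases, 250 before and 50 from the RefSeq start, were available for 2 of the 3 genes. Capitals mark the 7-base cores of metal response elements, TGCACNC or TGCGCNC on either strand, as they read on the plus strand. The first lies at chr8:94178839-94179081 and the second at chr8:94172368-94172617, both on the plus strand. Distances count from the RefSeq starts, base 94179089 for Mt1 and base 94172618 for Mt2, which differ from the starts of the gene spans above, 94179082 and 94172664. Each printed stretch ends before the earlier of the 2 starts. Cores after the RefSeq start therefore fall outside it, those at bases 3 and 21 counted from that start for Mt1 and at base 5 for Mt2.
Mt1: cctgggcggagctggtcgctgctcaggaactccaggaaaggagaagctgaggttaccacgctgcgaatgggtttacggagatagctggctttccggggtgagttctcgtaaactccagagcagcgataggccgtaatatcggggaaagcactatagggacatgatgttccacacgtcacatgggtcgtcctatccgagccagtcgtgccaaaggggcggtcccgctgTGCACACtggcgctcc
Mt2: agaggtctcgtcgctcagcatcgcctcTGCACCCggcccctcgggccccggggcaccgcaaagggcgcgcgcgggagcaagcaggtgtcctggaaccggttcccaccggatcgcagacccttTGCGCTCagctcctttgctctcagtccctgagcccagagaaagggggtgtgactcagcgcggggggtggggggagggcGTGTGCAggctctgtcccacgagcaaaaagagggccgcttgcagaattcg

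The Mt1 window held 3 such cores, and 647 of 32851 windows (1.97%) held as many or more. The Mt2 window held 4, a number reached or passed by 170 windows (0.517%). At least 1 core stood in 25.7% of all windows (TGCACNC in 12.6% and TGCGCNC in 15.4%), and Mt3 and Mt4 had 1 each. Each core is printed on its own strand with 6 bases on each side, named by the distance of the first base from the RefSeq start. In Mt1, 1 core lay 23 bases before that start and the others at bases 3 and 21 counted from it. In Mt2, the cores lay 223, 128 and 50 bases before the RefSeq start and at base 5 counted from it, the latter 2 on the minus strand.
Mt1, 23 before: ccgctgTGCACACtggcgc
Mt1, base 3: gagctcTGCACTCcgcccg
Mt1, base 21: gaaaagTGCGCTCggctct
Mt2, 223 before: cgcctcTGCACCCggcccc
Mt2, 128 before: acccttTGCGCTCagctcc
Mt2, 50 before: agagccTGCACACgccctc
Mt2, base 5: tgggccTGCGCACgacccg
Mt2, antioxidant response element, 79 before: ggggtgTGACTCAGCgcgggg

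The last of these is a match to the antioxidant response element core TGACNNNGC, which NRF2 is known to bind and which 12.4% of windows held. An AP-1 match, TGANTCA (7.81% of windows), began at the same base and overlapped it. Neither motif stood in the Mt1 window. The E-box CACGTG (7.15% of windows) and the STAT core TTCNNNGAA (8.30%) stood in neither. A match of this kind is a description of the letters and not a measured binding site. The starts are annotated ones and were not measured here, and bases past the end of each window were not searched.

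The Cherry_Positive library held 1826 barcodes and 10094853 UMIs, and the Cherry_Negative library 2861 barcodes and 11632459 UMIs. After filters 1766 and 2804 cells remained, with medians of 4348 and 3000.5 UMIs per cell, and 13 barcodes occurred in both libraries. Cells fell into 24 clusters, clustered without the 3 genes and named from marker genes, and classes are therefore called "-like". Levels are given in CPM, counts scaled to the same total of UMIs (1000000) in each class, for classes of at least 20 cells in a library, and ratios between libraries for the 6 classes with at least 50 cells in both. Transcripts of the leukocyte lineage genes Ptprc, Coro1a and Laptm5 summed to between 0 and 26.8 CPM in these 6 classes, while 1 cluster of 28 and 27 cells carried markers of several leukocyte types in spite of the CD45- sort.

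Metallothionein RNA was highest in fibroblast-like and myofibroblast-like cells in both libraries, apart from mixed leukocyte-like cells of Cherry_Positive, whose level rested on a few cells. In Cherry_Negative, Mt1 was highest in myofibroblast-like cells at 4787 CPM (interval 4562 to 5019.6), followed by adventitial fibroblast-like cells at 2006 CPM (1889.95 to 2127) and alveolar fibroblast-like cells at 1399 CPM (1342 to 1458). The 20 smooth muscle-like cells gave 1275 CPM (1049.6 to 1534), which could not be told apart from alveolar fibroblasts within counting error. Below these came pericyte-like cells at 416 CPM, mixed leukocyte-like cells at 351 CPM and type 2 alveolar epithelial (AT2-like) cells at 336 CPM, 3 levels with overlapping intervals. Endothelial and type 1 epithelial cells stood at the low end, with 82.2 CPM in venous-like, 42.3 in general capillary-like, 34.5 in arterial-like, 26.3 in Car4 capillary-like and 4.69 CPM (1 UMI) in AT1-like cells. The venous value rested on 1 cell with 18 of 25 UMIs, and the mixed leukocyte-like value on 1 cell with 26 of 43.

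In Cherry_Positive the order of Mt1 was led by adventitial fibroblast-like cells at 4564 CPM (4421 to 4711), with myofibroblast-like cells at 3594 CPM (3490 to 3701) and alveolar fibroblast-like cells at 3404 CPM (3351 to 3458) next. Carcinoma-like, AT2-like and pericyte-like cells lay together at 455, 449 and 406 CPM with overlapping intervals, although 1 of the 22 AT2-like cells held 42 of their 81 UMIs. Lymphatic-like cells had 203 CPM, and general and Car4 capillary-like cells had 149 and 137 CPM, again not distinguishable within counting error. The mixed leukocyte-like cells gave 3778 CPM, but 1 cell held 267 of their 470 UMIs and 5 cells held 99.1% of them.

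Mt2 followed the same broad order. In Cherry_Negative it stood at 1709 CPM (1576 to 1850.1) in myofibroblast-like cells, at 609 CPM (545 to 677) in adventitial and at 595 CPM (558 to 634) in alveolar fibroblast-like cells, the latter pair overlapping. No other class passed 376 CPM, the level of the smooth muscle-like cells. In Cherry_Positive, Mt2 reached 4439 CPM (4298 to 4584) in adventitial, 3446 CPM (3392 to 3499.8) in alveolar and 2267 CPM (2184 to 2352) in myofibroblast-like cells. The 129 carcinoma-like cells had 612 CPM of Mt2 (571 to 655), above their Mt1 level, and 1 of them held 162 of their 833 Mt2 UMIs. Mixed leukocyte-like cells gave 2990.2 CPM of Mt2, above myofibroblast-like cells, with 180 of 372 UMIs from 1 cell.

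Hmox1 had a different order. Its highest level in Cherry_Negative was in AT2-like cells, at 55.5 CPM (48.2 to 63.6), with a UMI in 34.8% of the 448 cells at a median depth of 8154 UMIs. Adventitial fibroblast, Car4 capillary, general capillary and myofibroblast-like cells followed at 36.0, 32.6, 29.9 and 28.1 CPM with overlapping intervals, and alveolar fibroblast-like cells had 23.1 CPM (16.2 to 31.8). In Cherry_Positive, alveolar fibroblast-like cells stood at 111 CPM (102 to 122), above the other classes with at least 50 cells. Carcinoma-like cells were lowest at 6.62 CPM (3.03 to 12.6). Mixed leukocyte-like cells gave 113 CPM, but from 14 UMIs of which 1 cell held 13. The macrophages in which Hmox1 is best known formed a class of 5 and 2 cells here and are not described.

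**Figure D1:**
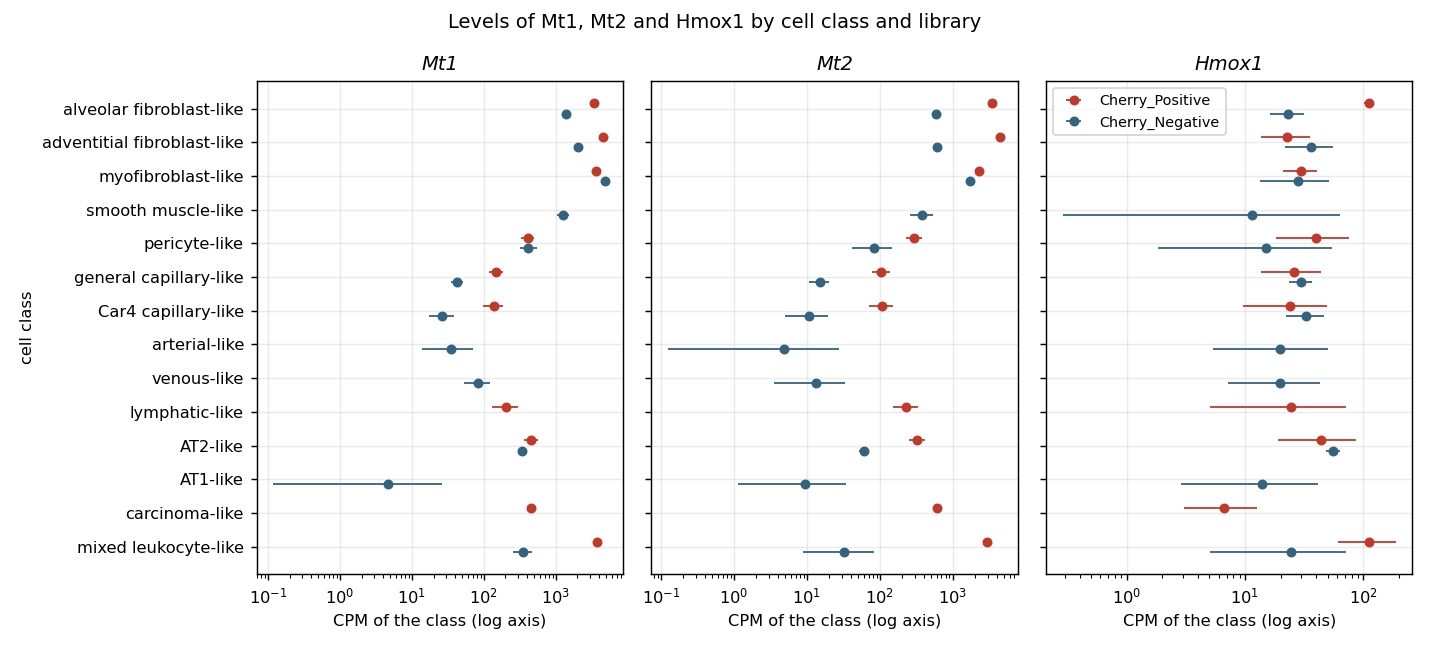
Level of each gene in CPM (log axis) by cell class for both libraries, as points with exact 95% Poisson intervals, for classes of at least 20 cells. Fibroblast-like and myofibroblast-like classes lie at the top for Mt1 and Mt2 beside mixed leukocyte-like cells of Cherry_Positive, while Hmox1 spans a narrow range with alveolar fibroblast-like cells of Cherry_Positive at 111 CPM and AT2-like cells of Cherry_Negative at 55.5 CPM.

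Over whole libraries, Mt1 stood at 2592 CPM in Cherry_Positive and 609 CPM in Cherry_Negative, Mt2 at 2429 and 206 CPM, and Hmox1 at 65.9 and 36.3 CPM. These values mix levels with cell composition, since fibroblasts filled much of the Cherry_Positive library and capillary and AT2-like cells much of the other, so the comparison was made within classes. A gene counted as higher or lower when its ratio was at least 2 in that direction. The background is the share of genes, of those with 30 or more UMIs in the libraries together, that passed the same line in the same class.

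In alveolar fibroblast-like cells, 870 in Cherry_Positive and 469 in Cherry_Negative, all 3 genes were at least 2-fold higher in Cherry_Positive, a line passed by 5.9% of 9665 genes; none was at least 2-fold lower, as 6.87% were. Mt1 stood at 3404 CPM against 1399 CPM, a ratio of 2.43 (2.33 to 2.55). Mt2 stood at 3446 CPM against 595 CPM, a ratio of 5.79 (5.42 to 6.19). With the libraries clustered separately the ratios were 1.66 (1.58 to 1.74) for Mt1, which is below 2-fold, and 2.56 (2.39 to 2.75) for Mt2. The ratio was larger for Mt2 than for Mt1 either way. At least 1 Mt1 UMI was seen in 76.0% of Cherry_Positive and 32.6% of Cherry_Negative cells, at median depths of 4512.5 and 3127 UMIs. With every cell thinned to 2000 UMIs, which left out 18 and 63 shallower cells, the shares were 65.1% (61.8 to 68.3) and 29.3% (24.9 to 34.0). The same thinning gave 59.4% against 20.9% for Mt2, from 71.0% and 20.7% unthinned. The median thinned cell of Cherry_Positive held 2 Mt1 UMIs, with the upper quartile at 9, against a median of 0 and an upper quartile of 1 in Cherry_Negative. For scale, AT1-like cells of Cherry_Negative, with the lowest Mt1 level, had a UMI in 1.75% of cells at a median depth of 3296, and Car4 capillary-like cells of Cherry_Positive in 27.2% at 3150 UMIs.

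The alveolar fibroblast-like cells of the libraries came largely from different clusters. Cluster 1, led by Slc7a10 and Tcf21, which mark resting alveolar fibroblasts, held 18.5% of them in Cherry_Positive and 70.8% in Cherry_Negative. Cluster 6, led by Tnfsf13b, C4b and Rbp4, held 24.3% and 19.2%. Cluster 7, led by Cxcl10, Saa3, Ccl2 and Cxcl9, which encode chemokines and an acute phase protein, held 280 and 7 cells. Cluster 8, led by Tfpi2, Tnc and Fst with Hmox1 itself among the first genes, held 217 and 22 cells. None of the 9 alveolar fibroblast markers was among the 10 leading genes of clusters 7 and 8, although all 9 had UMIs there. The detection line for naming was a UMI in at least 10% of cells and 10% of the highest cluster level. It was passed by 6 of the 9 in cluster 7 and by 8 in cluster 8. The summed level of the 9 in Cherry_Positive was 2578 CPM in cluster 7 and 3375 CPM in cluster 8 against 16065 CPM in cluster 1. AT1-like cells of Cherry_Negative had 3369 CPM of the same markers, so this sum alone does not name clusters 7 and 8.

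Cluster 7 carried most of the metallothionein RNA of the class in Cherry_Positive. It held 32.2% of the cells, 59.3% of the Mt1 UMIs and 75.5% of the Mt2 UMIs, with Mt1 at 5458 CPM (5348 to 5571) and Mt2 at 7035 CPM (6909 to 7162). Cluster 8 stood at 1639 CPM of Mt1 and 1389.5 CPM of Mt2, below its 22 Cherry_Negative cells at 3078 and 1893 CPM. The 7 cells of cluster 7 in Cherry_Negative gave 8200 CPM of Mt1 and 4048 CPM of Mt2, with 130 of 239 Mt1 UMIs from 1 cell.

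Clusters 1 and 6 had at least 50 cells in both libraries and allowed a comparison of like with like. In cluster 1, Mt1 stood at 1468 CPM against 965 CPM, a ratio of 1.52 (1.39 to 1.66), and Mt2 at 440 CPM against 304 CPM, a ratio of 1.45 (1.23 to 1.70). None of the 3 genes passed 2-fold there in either direction, where 1.68% of 6074 genes were higher and 1.98% lower. In cluster 6, Mt1 stood at 3235 CPM against 2020.1 CPM, a ratio of 1.60 (1.48 to 1.73), and Mt2 at 1839.9 CPM against 987 CPM, a ratio of 1.86 (1.67 to 2.08). Again none passed 2-fold, against 4.15% of 5472 genes higher and 2.91% lower. The difference between clusters 1 and 6 within a library exceeded that between libraries within either cluster for both genes. With clusters 7 and 8 left out, an alternative added after the data were seen, the ratios of the class were 2.12 (2.01 to 2.24) for Mt1 and 2.72 (2.50 to 2.96) for Mt2.

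**Figure D2:**
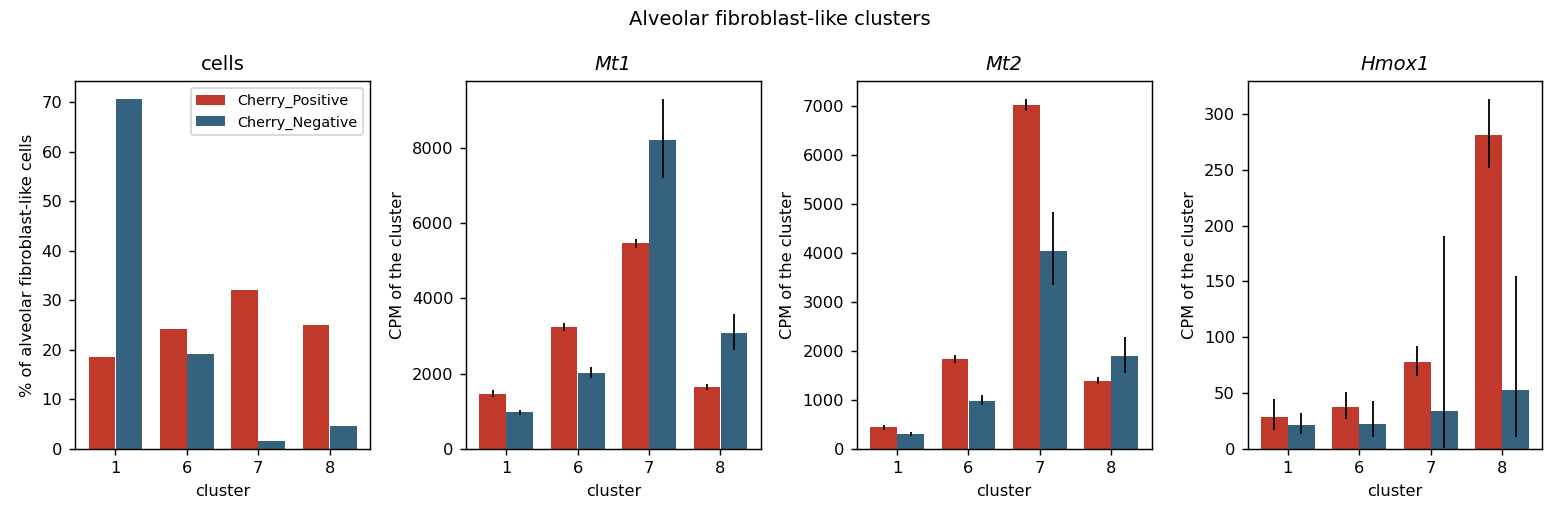
Share of the alveolar fibroblast-like cells (%) and level of each gene (CPM, bars with exact 95% intervals) in clusters 1, 6, 7 and 8 for both libraries. Cluster 1 holds 70.8% of the Cherry_Negative cells of the class, cluster 7 has the highest metallothionein levels, and cluster 8 of Cherry_Positive has the highest Hmox1 level.

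Adventitial fibroblast-like cells, 125 and 114, lie around bronchovascular bundles and came from 1 cluster in both libraries. Of the 3 genes, 2 were at least 2-fold higher in Cherry_Positive, as were 3.05% of 5173 genes, and none was at least 2-fold lower, as were 3.11%. Mt2 stood at 4439 CPM against 609 CPM, a ratio of 7.29 (6.52 to 8.18). Mt1 stood at 4564 CPM against 2006 CPM, a ratio of 2.28 (2.13 to 2.43), which was 1.66 (1.49 to 1.85) when every cell was thinned to 2000 UMIs and 1.91 as a mean over cells. A UMI of Mt1 was seen in 83.2% and 64.0% of cells, and of Mt2 in 80.8% and 43.0%, at median depths of 6108 and 4477.5 UMIs; thinned, the shares were 73.6% and 55.5% for Mt1 and 68.8% and 39.1% for Mt2.

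Myofibroblast-like cells, 243 and 131, were the exception for Mt1. Their Mt1 level was lower in Cherry_Positive, 3594 CPM against 4787 CPM, a ratio of 0.75 (0.71 to 0.79) and thus 1.33-fold lower (1.26 to 1.41). Mt2 was higher, 2267 CPM against 1709 CPM, a ratio of 1.33 (1.21 to 1.45). No member passed 2-fold in this class, in which 6.47% of 5475 genes were higher and 5.74% lower. A UMI of Mt1 was seen in 85.6% and 68.7% of cells, at median depths of 4307 and 2451 UMIs. After thinning the shares were 72.7% (66.7 to 78.2) and 67.0% (56.7 to 76.2), with overlapping intervals. The upper quartile of thinned cells was 12 Mt1 UMIs in Cherry_Positive and 16 in Cherry_Negative.

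Pericyte-like cells, the mural cells of capillaries, numbered 62 and 51. Mt1 did not differ beyond counting error, 406 CPM against 416 CPM, a ratio of 0.97 (0.69 to 1.39), and 1 Cherry_Negative cell held 21 of the 55 UMIs there. Without the cell with most UMIs in each library the ratio was 1.41 (0.936 to 2.18), and with trimmed-mean scaling it was 1.13 (0.801 to 1.61). Mt2 stood at 294 CPM against 83.2 CPM, a ratio of 3.54 (1.85 to 7.42), from 66 and 11 UMIs. Mt2 and Hmox1 were past 2-fold higher here and none of the 3 genes was lower, beside 7.06% of 2097 genes higher and 5.05% lower.

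Capillary endothelial cells had high ratios at low levels. General capillary-like cells, 130 and 998, had Mt1 at 149 CPM against 42.3 CPM, a ratio of 3.52 (2.59 to 4.74), and Mt2 at 105 CPM against 14.9 CPM, a ratio of 7.03 (4.59 to 10.8). Both were at least 2-fold higher, as were 2.45% of 7958 genes, and none of the 3 was lower, as were 6.13%. Car4 capillary-like cells, the large capillary cells of gas exchange (81 and 301), had Mt1 at 137 CPM against 26.3 CPM, a ratio of 5.19 (3.07 to 8.92), and Mt2 at 106 CPM against 10.5 CPM, a ratio of 10.1 (4.80 to 23.0). There too both passed 2-fold, beside 1.33% of 5185 genes higher and 3.68% lower.

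The level that free RNA of other cells could give was computed beside these capillary values. A class that took 5% of its UMIs from its own library's average composition would show 130 CPM of Mt1 and 121 CPM of Mt2 in Cherry_Positive, but 30.4 and 10.3 CPM in Cherry_Negative. In general capillary-like cells that amounts to 87.2% of the Mt1 and 116% of the Mt2 UMIs in Cherry_Positive and to 72.0% and 68.8% in Cherry_Negative. In Car4 capillary-like cells it amounts to 94.9% and 115%, and to 116% and 97.7%. In pericyte-like cells it amounts to 31.9% of the Mt1 and 41.3% of the Mt2 UMIs in Cherry_Positive, and to 7.31% and 12.4% in Cherry_Negative. In alveolar, adventitial and myofibroblast-like cells it amounts to between 0.602% and 5.36% of the Mt1 and Mt2 UMIs. The summed collagen RNA of general capillary-like cells was 1.65% of the alveolar fibroblast level in Cherry_Positive and 1.14% in Cherry_Negative, and that of the 9 alveolar fibroblast markers 4.03% and 0.736%, beside 4.37% and 3.02% for Mt1 and 3.05% and 2.51% for Mt2. Red cell transcripts also differed, with 4 haemoglobin genes at 5831 CPM against 16.4 CPM in general and 9160 CPM against 32.6 CPM in Car4 capillary-like cells. With that 5% subtracted, the Mt1 ratio in general capillary-like cells was 1.61, below 2-fold. Mt2 there and both metallothioneins in Car4 capillary-like cells gave no ratio, since no UMIs were left in 1 of the libraries. In pericyte-like cells the same subtraction left ratios of 0.72 for Mt1 and 2.37 for Mt2. The part of free RNA or of red cells in the capillary and pericyte ratios was not tested.

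**Figure D3:**
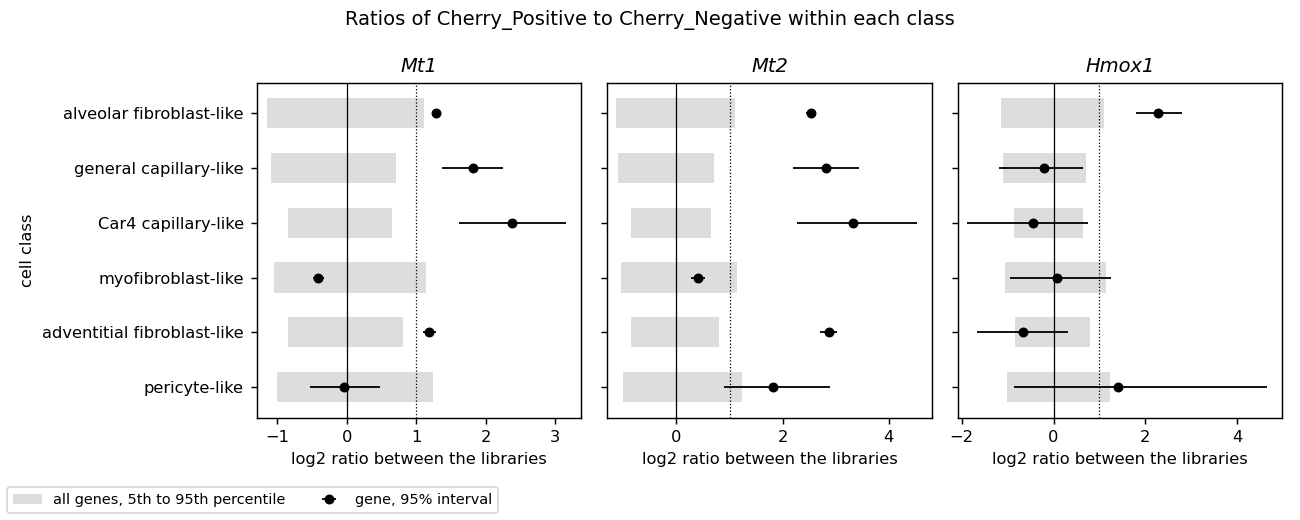
Log2 ratio of Cherry_Positive to Cherry_Negative for each gene (points with 95% counting intervals) in the 6 compared classes, over grey bars from the 5th to the 95th percentile of all genes with at least 30 UMIs. The dotted line marks a 2-fold ratio, the myofibroblast-like Mt1 value lies below 0, and the Hmox1 interval lies above 0 in alveolar fibroblast-like cells only.

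Over the 6 classes, the median log2 ratio was 1.23 for Mt1 (range -0.41 to 2.37), 2.67 for Mt2 (0.41 to 3.33) and -0.07 for Hmox1 (-0.67 to 2.27). Mt1 was at least 2-fold higher in 4 classes, Mt2 in 5 and Hmox1 in 2, and no gene was at least 2-fold lower in any. The trimmed mean of the log2 ratios of all genes was -0.14 in alveolar fibroblast-like, -0.20 in myofibroblast-like and -0.22 in pericyte-like cells. Scaling to that mean left the directions of Mt1 and Mt2 in the 6 classes as given, except that of Mt1 in pericyte-like cells.

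Because Mt2 differed by more than Mt1, the makeup of the metallothionein RNA differed between the libraries. A UMI stands for 1 captured 3' end whatever the length of the transcript, so the 2 genes were compared as shares of their joint UMIs. In alveolar fibroblast-like cells, Mt1 gave 49.7% (49.1 to 50.3) of these in Cherry_Positive and 70.2% (68.5 to 71.7) in Cherry_Negative. The shares were 50.7% and 76.7% in adventitial fibroblast-like, 61.3% and 73.7% in myofibroblast-like and 58.0% and 83.3% in pericyte-like cells, with intervals that did not overlap in any of these classes. In capillary-like cells the share was lower in Cherry_Positive too (58.6% against 73.9% in general and 56.3% against 71.4% in Car4 capillaries), but the intervals overlapped. The free RNA assumed above would amount to between 68.8% and 116% of these capillary UMIs. It would give 130 CPM of Mt1 and 121 CPM of Mt2 in Cherry_Positive, and 30.4 and 10.3 CPM in Cherry_Negative. Its part in the capillary shares was not tested. AT2-like cells, with 22 cells in Cherry_Positive, had 57.9% and 84.8%. Behind the first value, the cell with most Mt1 held 42 of 81 UMIs and the cell with most Mt2 held 33 of 59. Behind the second value, 1 of the Cherry_Negative cells held 99 of the 223 Mt2 UMIs.

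Within cluster 1 the share did not differ beyond counting error, 77.0% (74.5 to 79.2) against 76.0% (73.6 to 78.3). In cluster 6 it was 63.7% against 67.2%, with overlapping intervals. In cluster 7 of Cherry_Positive, Mt1 gave 43.7% (43.0 to 44.4), so that Mt2 was the more abundant of the 2 there, as it was in carcinoma-like cells at 42.6% (40.1 to 45.2).

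**Figure D4:**
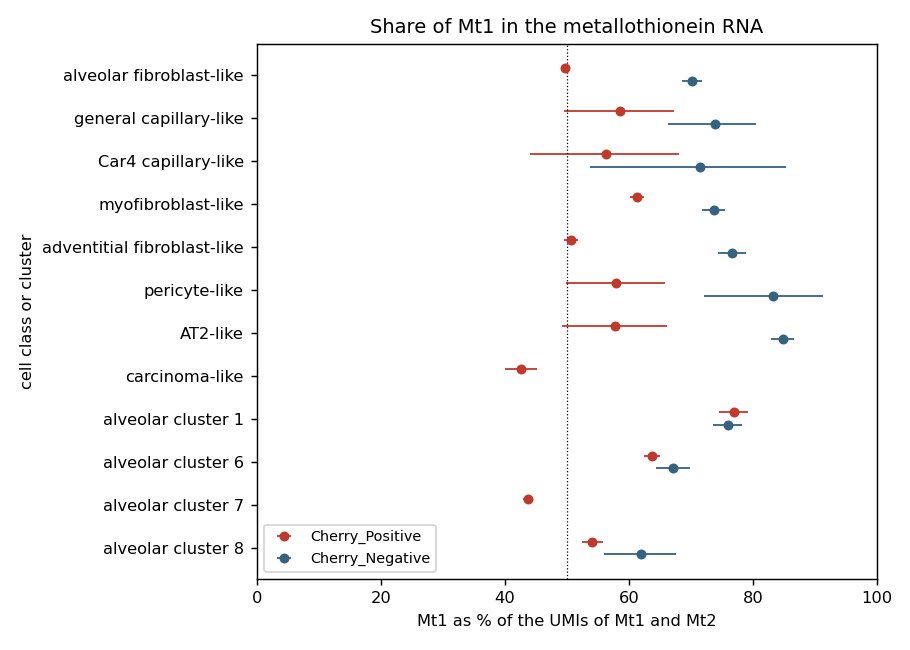
Mt1 as a percentage of the UMIs of Mt1 and Mt2 (points with exact 95% binomial intervals) by class and by alveolar fibroblast-like cluster for both libraries, with a dotted line at equal amounts. Cherry_Positive lies to the left of Cherry_Negative in the 6 compared classes, while the points of cluster 1 coincide at 77.0% and 76.0%.

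From cell to cell, Mt1 and Mt2 went together in fibroblast-like and myofibroblast-like cells. On counts thinned to 2000 UMIs, the Spearman correlation of Mt1 with Mt2 was 0.66 and 0.54 in alveolar fibroblast-like cells of Cherry_Positive (852 cells) and Cherry_Negative (406 cells), 0.78 and 0.63 in adventitial fibroblast-like (125 and 110 cells) and 0.58 and 0.64 in myofibroblast-like cells (242 and 97 cells). It was 0.75 over the 274 thinned cells of cluster 7 in Cherry_Positive, of which 74.1% held UMIs of both and 9.49% of neither. In pericyte-like cells it was 0.19 in Cherry_Positive (60 cells) and -0.29 in Cherry_Negative (27 cells, of which 0 held UMIs of both). In capillary-like cells, where few cells held a UMI, it lay between -0.03 and 0.15. The correlations of Hmox1 with Mt1 or Mt2 lay between -0.17 and 0.20 in all 6 classes and the 4 clusters. After thinning, 9.39% or fewer of the cells of each of the 6 classes held a Hmox1 UMI in either library. Correlations near 0 at so few UMIs cannot tell a lack of relation from a lack of counts. Cells of 1 library share their preparation and are not replicates, so these values describe the cells only.

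Metallothionein RNA was unevenly spread. The 87 alveolar fibroblast-like cells with most Mt1 UMIs, the top 10% of the class, held 52.4% of that gene's UMIs in Cherry_Positive, and the 47 such cells of Cherry_Negative held 82.3%. The corresponding shares were 63.2% and 90.5% for Mt2. In Cherry_Negative, 67.4% of alveolar fibroblast-like cells had no Mt1 UMI, whereas 11.5% had 10 or more.

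Hmox1 stood at 111 CPM against 23.1 CPM in alveolar fibroblast-like cells, a ratio of 4.83 (3.46 to 6.94), from 512 and 37 UMIs. A single Cherry_Positive cell held 146 of the 512 UMIs, and 5 cells held 44.3%. Without the cell with most UMIs in each library the ratio was 3.65 (2.58 to 5.32), and without the top 5 cells, an alternative added after the data were seen, 3.43 (2.33 to 5.21). The high cells were therefore part of the difference but not all of it. The share of cells with a UMI was 18.9% against 7.25%, and after thinning 9.39% (7.52 to 11.5) against 3.94% (2.27 to 6.32).

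Cluster 8 held 24.9% of the alveolar fibroblast-like cells of Cherry_Positive and 62.5% of their Hmox1 UMIs, at 281 CPM, with 146 of its 320 UMIs from that single cell. Cluster 7 had 77.7 CPM (65.0 to 92.2). In cluster 1, Hmox1 stood at 28.6 CPM against 21.2 CPM (ratio 1.35, 0.692 to 2.62), and in cluster 6 at 37.6 CPM against 22.7 CPM (ratio 1.66, 0.795 to 3.89), neither beyond counting error. With clusters 7 and 8 left out the ratio of the class was 1.57 (1.01 to 2.48), and with finer clusters (resolution 2) it was 2.74 (1.91 to 4.06). The 5 Cherry_Positive cells with most Hmox1, 4 of them in cluster 8, held between 14 and 146 UMIs of the gene. None of the 5 had a UMI of the 10 macrophage or monocyte markers or of the leukocyte lineage genes. Each had between 7 and 33 UMIs of mesenchymal genes, at depths between 8395 and 18955 UMIs. The cell with 146 Hmox1 UMIs had 8 of mesenchymal genes and 5 of the alveolar fibroblast markers among its 18955. The third cell had 7 and 2 among 10461. Counts this low do not settle the type of these 2 cells.

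In the other 5 classes the Hmox1 intervals all included 1. Myofibroblast-like cells had 29.7 CPM against 28.1 CPM, general capillary-like cells 25.8 against 29.9 CPM (ratio 0.86, 0.44 to 1.56) and Car4 capillary-like cells 23.9 against 32.6 CPM (ratio 0.73, 0.272 to 1.69). Adventitial fibroblast-like cells, whose metallothionein ratios were among the higher ones, had 22.6 CPM of Hmox1 against 36.0 CPM, a ratio of 0.63 (0.317 to 1.24). In pericyte-like cells 9 UMIs against 2 gave a ratio of 2.65 (0.549 to 25.2), past 2-fold by its value alone, and after thinning it was 1.35. In the main run, the upper bounds of 4 of these classes were at most 2.38 (myofibroblast-like). They lay below the lower bound of 3.46 in alveolar fibroblast-like cells, and that of pericyte-like cells did not. Under several alternatives given above, the lower bound in alveolar fibroblast-like cells fell below 2.38. The ratio itself ranged from 1.57 to 5.51 there over the settings run, so the separation holds for the main run only.

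Zinc transport genes were measured as neighbours in function of the metallothioneins. The list holds importers of the Slc39a family, which bring zinc into the cytosol, exporters of the Slc30a family, Mtf1, Mt3 and Mt4. In alveolar fibroblast-like cells, 4 of 17 members with at least 10 UMIs were at least 2-fold higher in Cherry_Positive and 1 lower, with a median log2 ratio of 0.28 against -0.10 over 11469 genes, of which 7.64% were higher and 9.78% lower. Slc39a14, an importer of zinc and iron known from the acute phase response, stood at 84.3 CPM against 16.2 CPM, a ratio of 5.20 (3.49 to 8.06). Slc39a1, an importer of the cell surface, stood at 302 CPM against 122 CPM, a ratio of 2.47 (2.12 to 2.88), and Slc39a7, which releases zinc from the secretory pathway, at 174 CPM against 148 CPM.

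Slc39a14 was also higher in Cherry_Positive in adventitial fibroblast-like cells, 59.4 CPM against 10.8 CPM (ratio 5.50, 2.36 to 15.7), and in myofibroblast-like cells, from 67 and 5 UMIs (ratio 3.83, 1.56 to 12.2). Within clusters 1 and 6 its ratios were 3.33 (1.36 to 8.90) and 3.00 (1.68 to 5.82). Slc39a1 had a ratio of 3.18 in adventitial fibroblast-like, 2.09 in myofibroblast-like and 2.27 in Car4 capillary-like cells, and 1.76 and 2.02 in clusters 1 and 6. Outside the rule for named genes, and after its values were seen, Slc30a1 is given because this zinc exporter is a known target of MTF1. It had 23 and 14 UMIs in alveolar fibroblast-like cells, 5.01 CPM against 8.73 CPM, a ratio of 0.57 (0.283 to 1.21).
The counts of the zinc list in the other classes were 4 higher and 2 lower of 15 in adventitial fibroblast-like cells (5.71% and 7.74% of all genes), 4 and 1 of 14 in myofibroblast-like cells (9.16% and 11.6%), 0 and 1 of 16 in general capillary-like cells (4.52% and 10.6%), 2 and 2 of 15 in Car4 capillary-like cells (4.35% and 8.69%) and 1 and 0 of 5 in pericyte-like cells (9.52% and 11.4%).

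Genes of haem and iron handling had a median close to that of all genes where Hmox1 was higher. Of 24 members measured in alveolar fibroblast-like cells, none passed 2-fold in either direction, beside 7.64% of all genes higher and 9.78% lower. Their median log2 ratio was -0.11 against -0.10 over all genes. The ferritin subunits Fth1 and Ftl1, which store iron, stood at 11643 CPM against 9995 CPM (ratio 1.16) and 6085 CPM against 5015 CPM (ratio 1.21). The genes that act beside or after Hmox1 are given for their role, also after their values were seen. Hmox2, the constitutive haem oxygenase, had a ratio of 0.86 (0.689 to 1.07), and the biliverdin reductases Blvra and Blvrb had 0.78 (0.540 to 1.14) and 0.89 (0.738 to 1.08). Beside the shares of all genes given with the zinc list, at most 2 of the 13 to 23 measured members were higher and at most 1 lower in the other 5 classes. Among them were Cp, the ferroxidase ceruloplasmin, and Lrp1, a receptor for haem carriers, higher in general capillary-like cells from 10 and 6 UMIs, and in adventitial fibroblast-like cells Cpox, of haem synthesis, 2.32-fold lower (1.16 to 4.79).

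NRF2 targets, which respond to oxidative stress, had 3 of 19 members at least 2-fold higher and none lower in alveolar fibroblast-like cells, beside 7.64% of all genes higher and 9.78% lower, with a median log2 ratio of 0.22. Txn1, thioredoxin, stood at 711 CPM against 313 CPM, a ratio of 2.27 (2.07 to 2.50). Me1, the cytosolic malic enzyme, stood at 33.1 CPM against 11.8 CPM, a ratio of 2.79 (1.73 to 4.77), and Prdx1, a peroxiredoxin, at 1102 CPM against 874 CPM. Elsewhere at most 1 of the 12 to 18 members was past 2-fold in a direction, beside the shares of all genes given with the zinc list. Among them were Pgd, of the pentose phosphate pathway, in myofibroblast-like cells (ratio 3.90, 1.24 to 19.7) and, in pericyte-like cells, Maff, which was higher, and the NRF2 gene Nfe2l2, which was lower.

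Glucocorticoid targets had a median below that of all genes in alveolar fibroblast-like cells. There 2 of 9 were at least 2-fold higher and 3 lower, beside 7.64% and 9.78% of all genes, with a median log2 ratio of -0.66. Tsc22d3, which encodes the glucocorticoid-induced leucine zipper, was 2.61-fold lower (2.20 to 3.10) at 62.5 CPM against 163 CPM, Klf9 was 2.27-fold lower (2.04 to 2.52), and Zbtb16 was 3.50-fold lower (2.20 to 5.60). Dusp1, the most abundant member and also an early gene of stress, stood at 1331 CPM against 2499 CPM. The 2 higher members, Fkbp5 and Errfi1, had ratios of 4.07 (1.78 to 11.5) and 2.05 (1.66 to 2.55) and are named outside the rule, after their values were seen. Sgk1 was also higher by less than 2-fold, with a ratio of 1.35 (1.04 to 1.78). Within clusters 1 and 6 the medians of the list were -0.26 and -0.52. In cluster 1, 1 of 8 members was at least 2-fold higher and none lower, beside 3.99% and 6.01% of all genes. In cluster 6, 1 of 9 was higher and 1 lower, beside 7.69% and 6.90%. The ratios in clusters 1 and 6 were 0.73 and 0.48 for Tsc22d3, 0.71 and 0.60 for Klf9, and 0.84 and 1.06 for Dusp1. Medians were below those of all genes in the other 5 classes too, between -0.24 in Car4 capillary-like and -0.76 in pericyte-like cells.

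The list of IL-6 and STAT3 genes had 7 of 15 members at least 2-fold higher and 2 lower in alveolar fibroblast-like cells, beside 7.64% and 9.78% of all genes, with a median log2 ratio of 0.81. Saa3, an acute phase apolipoprotein, stood at 7647 CPM against 966 CPM, a ratio of 7.92 (7.52 to 8.33), and Timp1, an inhibitor of matrix metalloproteinases, at 2189 CPM against 234 CPM, a ratio of 9.33 (8.42 to 10.4). The lower pair, named after their values were seen, were Il6ra, a receptor chain of IL-6, at 2.83-fold lower (2.09 to 3.83) and Socs3, a feedback inhibitor of STAT3 signalling, at 2.15-fold lower (1.97 to 2.34). In myofibroblast-like cells, where Mt1 was lower, 5 of 14 members were higher and 1 lower (9.16% and 11.6% of all genes), with Timp1 at 975 CPM against 210.4 CPM (ratio 4.63, 3.67 to 5.93). Adventitial fibroblast-like cells had 2 higher and 1 lower of 15 (5.71% and 7.74% of all genes), with Timp1 at a ratio of 4.09 (3.50 to 4.80) but Saa3 2.11-fold lower (1.75 to 2.56). The counts were 7 higher and 1 lower of 14 in general capillary-like (4.52% and 10.6%), 2 and 0 of 12 in Car4 capillary-like (4.35% and 8.69%) and 6 and 0 of 9 in pericyte-like cells (9.52% and 11.4%). In adventitial fibroblast-like cells Saa3 was lower and Mt2 higher. By any amount, 11 of the 15 list members were higher there and 4 lower, with a median log2 ratio of 0.40 against -0.06 over all genes. A relation of the list to the metallothioneins was not tested.

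Genes induced by tissue dissociation and heat shock were measured because metallothioneins respond to handling stress. None of 18 passed 2-fold in alveolar fibroblast-like cells, beside 7.64% of all genes higher and 9.78% lower. Their median log2 ratio was -0.41, with Fos at 3523 CPM against 6102 CPM and Junb at 3454 CPM against 4878 CPM. Within cluster 1 the median was -0.08. Within cluster 6 it was 0.28, with 14 of 18 members higher and 4 lower by any amount. At most 1 of 17 or 18 passed in either direction in the other classes, beside the shares of all genes given with the zinc list. Atf3 was 2.43-fold lower (2.06 to 2.87) in myofibroblast-like cells and Hspb1 2.65-fold lower (1.36 to 5.32) in pericyte-like cells. All 4 haemoglobin genes measured in alveolar fibroblast-like cells were higher, summing to 149 CPM against 17.5 CPM, and in myofibroblast-like cells the 4 summed to 153 CPM against 16.8 CPM. The 3 measured in adventitial fibroblast-like cells summed to 136 CPM against 19.8 CPM.

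**Figure D5:**
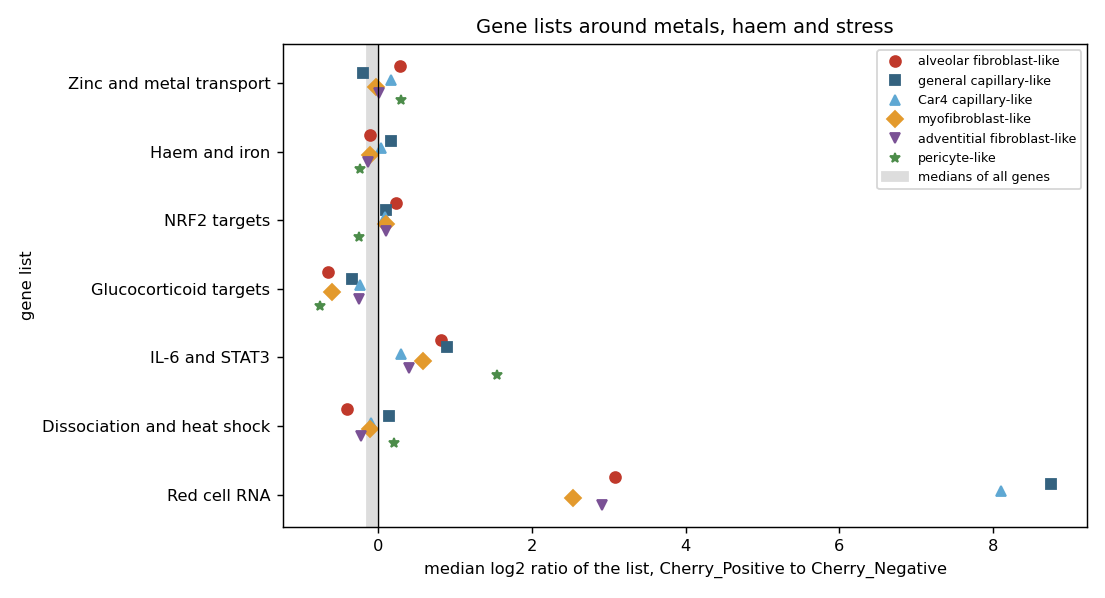
Median log2 ratio of Cherry_Positive to Cherry_Negative over the measured members of each gene list, one symbol per class, for lists with at least 3 members measured; the grey band spans the medians of all genes. The IL-6 and STAT3 list lies to the right of 0 in every class, the glucocorticoid list to the left, and the haemoglobin genes reach 8.75 in general capillary-like cells.

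The genes most like each member were ranked by Pearson's r of log2(CPM + 10) over 22 sums of 1 class in 1 library, among 6955 genes of at least 50 CPM in any of them. These points share 2 libraries and cell types, so r is a description. Mt1 and Mt2 were each other's nearest gene at 0.93. The next for Mt1 were Rhou (0.85), Col6a3, Dclk1, C4b and Sec61g (0.84 each), and for Mt2 they were Timp1 (0.91), Sec61g (0.89), Thbs1 (0.87), Ccl7 (0.86) and Ccl2 (0.84). For Hmox1 the values were lower, with Saa3 and Sec61a1 at 0.69, Hp and Trf at 0.64 and Saa1 at 0.63, and with 0.37 for either metallothionein. With 1 in place of 10 added to the CPM, 2, 4 and 3 of the 5 nearest genes remained for Mt1, Mt2 and Hmox1.

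The other metallothionein genes of the cluster were close to silent at this depth. Mt3, the metallothionein of brain, had 5 UMIs in 4 Cherry_Positive cells and Mt4, that of stratified epithelia, had 3 UMIs in 3 cells. Neither had a UMI in Cherry_Negative, which allows a share of up to 0.107% of its 2804 cells with a UMI.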

How the data were processed

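The deposited matrices held UMI counts per gene and cell for 2 libraries. Per the labels' protocols they were made with the Chromium 3' chemistry, and per the submitters' processing notes with Cell Ranger 2.1.1 (mm10), Seurat 4.0.2 and R 4.0.3. No other step is named there. Depth of the cells kept after the filters below ranged from 1461 to 61192 UMIs.

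Cells with at least 500 genes and at most 10% mitochondrial UMIs were kept (56 and 50 left out). Called doublets were removed (4 and 7, or 0.226% and 0.249%), too few to say that none remained. Cells of both libraries were clustered together with Scanpy 1.11.5 (2000 variable genes without the 3 members, 30 principal components, 15 neighbours, Leiden resolution 1) and named from marker genes; 3 markers could not be used. Names rebuilt in this way may differ from the study's.

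UMIs were summed per class and library. Levels have exact Poisson intervals, ratios and shares exact binomial ones. Shares of cells were also computed after thinning to 2000 UMIs. Ratios and their intervals were run on simulated Poisson counts, which follow the counting error that the intervals assume. The simulation held no uneven spread of UMIs over cells, so it cannot show how the intervals fare under such a spread.

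The members, lists and tests were chosen with earlier results of these data known. Of each list, the named genes are the 2 with most UMIs in alveolar fibroblast-like cells and, per class, the 2 past 2-fold with the interval bound farthest from 1; genes named besides are marked. Alternatives covered 13 choices of filter, clustering, scaling, thinning, single cells and free RNA, plus 2 added after seeing the data.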

Additional observations from a re-analysis of the deposited data

Results flagged for a closer look

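The Mt1 ratio was above 1 in 4 classes and below 1 in myofibroblast-like cells, with intervals on either side of 1. The log2 ratio of Mt1 minus that of myofibroblast-like cells was 1.70 in alveolar fibroblast-like, 1.60 in adventitial fibroblast-like, 2.23 in general capillary-like and 2.79 in Car4 capillary-like cells. With 1 library per group this difference between classes was not tested. Over 14 alternatives, Mt1 in myofibroblast-like cells stayed below 1, between 0.716 and 0.883. In the capillary-like classes Mt1 lay near the level that 5% of free RNA would give, and its part in those values was not tested.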

How the results depend on the processing

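No direction of a called value turned under any alternative run. Of 247 ratios of 1 gene in 1 class under an alternative, 210 stayed within their counting interval. Of 42 medians, 34 stayed within the mean interval bounds of the 2 middle classes. Of 42 counts of classes past 2-fold 37, and of 84 list counts 63, stayed within 1.5 times. With 5% free RNA subtracted, Mt1 was at least 2-fold higher in 2 of 5 classes (median log2 ratio 0.68) and Mt2 in 3 of 4 (1.88), since classes without UMIs left gave no value. The Mt1 median was 1.34 at resolution 2, 0.96 with the libraries clustered separately, 1.35 with trimmed-mean scaling, 1.09 after thinning and 1.43 without the 5 top cells; that of Mt2 was 3.14 without them. Hmox1 was past 2-fold in 1 class after thinning, with at least 1000 genes and at most 5% mitochondrial UMIs, and without the 5 top cells. The causes of these shifts were not tested. With the libraries clustered separately, the alveolar fibroblast-like ratios were 1.66 (1.58 to 1.74) for Mt1 and 2.56 (2.39 to 2.75) for Mt2. The log2 ratio of Mt1 in pericyte-like cells was -0.04, and 1.07 without the 5 top cells, so no direction is read there. No paired analysis was possible because each group has 1 library. Hmox1 in pericyte-like cells rests on 11 UMIs and is limited by depth.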
